A study of Mus musculus with 13 samples.

Results

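IL-17A alone was compared with no treatment in 4T1 cells, a BALB/c mouse mammary carcinoma line used as a model of triple negative breast cancer, here the Thy1.1-marked derivative 4T1-Thy1.1. The comparison takes 6 of the 13 libraries of the series, 3 of untreated control cells (replicates 1, 3 and 5) and 3 of cells given recombinant IL-17A at 25 ng/mL (replicates 2, 3 and 5), all collected at 48 h. The other 7 libraries, 4 of cells given doxorubicin (DOX) at 200 ng/mL and 3 given DOX+IL-17A at the same doses, entered the fit to estimate the spread and served once for comparison. All genes in the table were eligible, and 12319 of 13222 had enough reads to be tested. This filter used all 13 libraries, so a gene could pass through the libraries given DOX. The comparison asks which transcripts the cytokine changes in the tumor cells themselves, without drug and without immune or stromal cells. The labels give DMEM/F12 as the medium and the methods of the study an RPMI medium, so the medium is not certain. No label says that replicates came from separate cultures. The methods of the study state at least 3 biological replicates for its data, without saying what a replicate was for these libraries. The p-values therefore measure the spread between these libraries, which may be technical.

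IL-17A is a cytokine made mainly by T cells, and it acts on epithelial and stromal cells through a receptor of the IL-17RA and IL-17RC chains. The adaptor Act1 (encoded by Traf3ip2) and TRAF6 relay the signal to NF-kB, MAP kinases and the C/EBP factors, and other adaptors stabilize target mRNAs. Its classical epithelial targets are neutrophil-attracting CXC chemokines, acute phase and antimicrobial proteins, the transcriptional co-activator IkBζ (Nfkbiz) and C/EBPδ, together with feedback inhibitors such as Regnase-1 (Zc3h12a).

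The libraries held 6583757 to 16930600 reads on listed genes, so that 3 reads corresponded to a normalized value of 0.183 to 0.508. Control replicate 1 stood apart from the other 5 libraries. Its correlation with them across genes, on log2(value + 1), was 0.883 to 0.936, against 0.946 to 0.984 among the others, and it lay at the far end of the first principal component. Reads on snoRNA genes were 0.374% of its total against 0.0343% to 0.0982% elsewhere. IL-17A replicate 5 was its nearest neighbour on that component, and each result below was therefore also computed without these 2 libraries. The epithelial markers were present in every library: Epcam lay between 383 and 733, Krt8 between 329 and 472 and Krt18 between 236 and 375.

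**Figure D1:**
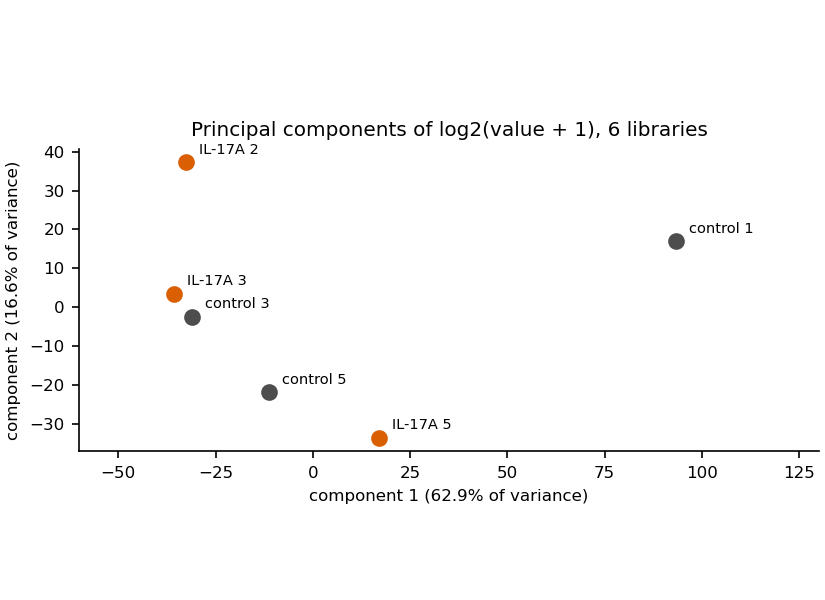
First and second principal components of log2(value + 1) over the genes tested, 1 point for each control (grey) and IL-17A (orange) library. Control 1 lies at 93.4 on the first component and the other 5 libraries between -35.7 and 17.02, and the groups are not separated on either axis.

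Ehf was the 1 gene that limma called, 0.00812% of the genes tested, and it was higher with IL-17A. A call needed a fold change above 2 and a Benjamini-Hochberg adjusted p under 0.05, and 0 genes (0%) were called lower. Ehf encodes an epithelial transcription factor of the ETS family and lies on chromosome 2, 103263433 to 103303278, minus strand (mm10). Its normalized value was 7.44, 3.41 and 3.06 in control replicates 1, 3 and 5, and 30.3, 20.9 and 21.3 in IL-17A replicates 2, 3 and 5. All 3 IL-17A libraries were above all 3 controls, and control replicate 1 was the highest control. The mean rose from 4.64 ± 2.43 to 24.2 ± 5.31 (SD, n = 3 each), a log2 fold change of 2.22 ± 0.32 (SE), with an adjusted p of 0.0492. Without control replicate 1 and IL-17A replicate 5 it was 2.63, with an adjusted p of 0.00332. The size held, but the call was lost in 19 of 24 alternative fits. With only the 6 libraries of this comparison in the fit, the adjusted p was 0.996. With all libraries, the adjusted p was 0.0602 by edgeR's quasi-likelihood test, 0.0621 by voom with limma and 4.4e-07 by DESeq2. In limma, leaving out any single library other than control replicate 1 gave 0.066 to 0.259.

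Across all genes, in limma, 380 genes (3.08% of those tested) had an unadjusted p under 0.05, 231 higher (1.88%) and 149 lower (1.21%), and the lowest and highest values of the groups did not overlap for 390 higher (3.17%) and 354 lower genes (2.87%). The count of 380 was 1404 without control replicate 3, 649 without control replicate 5, 1126 without IL-17A replicate 5, 229 without IL-17A replicate 2 and 635 without control replicate 1 and IL-17A replicate 5. The median log2 fold change of all genes tested was 0.02, and -0.02 when scaled by library size only. The count of calls depended on the test: edgeR's quasi-likelihood test and voom each called 0 genes, with 396 and 273 at an unadjusted p under 0.05, and DESeq2 called 15, of which 12 were higher (Ehf, Cxcl5, Il1a, Zc3h12a, Cebpd, Cdkn1a, Id2, Slc39a4, Neurl3, Nrp2, Prnd and Prss12) and 3 lower (Thbs1, Prss23 and Sp110). Leaving out control replicate 1 and IL-17A replicate 5 together gave 5 calls in limma (0.0394%), all higher: Ehf, Cxcl5, Zc3h12a, Nrp2 and Prnd. In that fit edgeR's quasi-likelihood test called 1, Ehf. For Cxcl5, Zc3h12a and Nrp2 the lowest IL-17A value was that of IL-17A replicate 5, which that fit left out. Limma called none of these genes when a single library was left out. Genes other than Ehf are described below by their values, since limma called none of them with all libraries in the fit. Adjusted p-values below are from limma unless another tool is named.

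**Figure D2:**
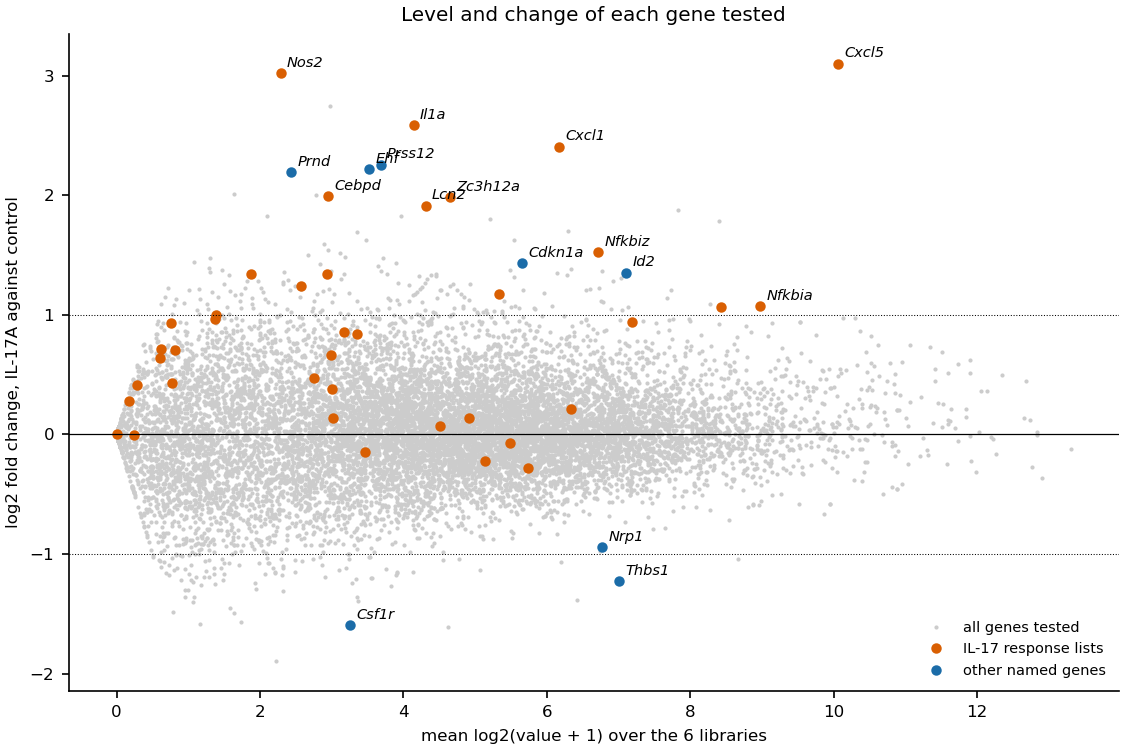
Log2 fold change of each gene tested, IL-17A against control, by its mean log2(value + 1) over the 6 libraries. Dotted lines mark a fold change of 2 in each direction, orange points the IL-17 response genes and blue points other named genes. Cxcl5 combines a high level with a log2 fold change of 3.10, and Csf1r at -1.59, Thbs1 at -1.23 and Nrp1 at -0.94 are labelled on the lower side.

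The chemokines and cytokines of the IL-17 response lay mostly on the higher side. Of 14 tested members 13 were higher and 0 lower, 5 of them at an unadjusted p under 0.05, and the median log2 fold change was 0.95, or 1.19 without the 2 libraries. The 13 include Ccl2 and Csf2, which were near the limit of detection in these 2 groups. Cxcl5, a neutrophil-attracting chemokine on chromosome 5 (90759360 to 90761624), had values of 318.6, 420.5 and 357.4 in control replicates 1, 3 and 5, and 5809, 3288 and 1598 in IL-17A replicates 2, 3 and 5. The groups did not overlap, and the IL-17A libraries differed among themselves more than the controls did. Its log2 fold change was 3.10 ± 0.55 (SE), with an adjusted p of 0.22 in limma and of 0.0447 without the 2 libraries.

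Cxcl1, which binds the same neutrophil receptor, had 24.7, 46.9 and 23.7 in the controls and 588, 170 and 44.1 with IL-17A. IL-17A replicate 5 lay below control replicate 3, so the groups overlapped, and the adjusted p was 0.959 for a log2 fold change of 2.41. Cxcl2, a further ligand of that receptor, had 4.57, 1.46 and 3.18 against 20.50, 6.60 and 3.61, again with overlap through IL-17A replicate 5.

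Il1a, encoding the alarmin cytokine IL-1α, had 6.26, 5.85 and 6.60 in the controls and 57.0, 54.1 and 24.5 with IL-17A. The controls were nearly equal and all 3 IL-17A libraries lay above them, with a log2 fold change of 2.58 ± 0.54 (SE) and an adjusted p of 0.26. For Il1b, encoding IL-1β, the values were 6.77, 4.44 and 4.95 against 8.56, 11.3 and 7.55, a log2 fold change of 0.67. Cx3cl1, encoding fractalkine, had 9.98, 42.1 and 39.8 against 85.3, 79.1 and 31.4, with overlap.

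Some classical members were at or near the limit of detection. Il6 had 0 reads in all 6 libraries, which allows values up to that of 3 reads. The reads of Ccl2, a monocyte chemokine, numbered 0, 1 and 0 in the controls and 0, 4 and 2 with IL-17A, and those of Csf2, encoding GM-CSF, numbered 1, 0 and 0 against 2, 6 and 2. The filter that let these genes be tested also used the libraries given DOX. With DOX alone, Il6 had values of 3.06 to 6.80, Ccl2 2.06 to 5.69 and Csf2 1.26 to 2.19. Csf3, encoding the neutrophil growth factor G-CSF, was well detected and had values of 39.2, 1.64 and 3.18 against 17.3, 8.02 and 14.4. The other 2 controls of Csf3 lay below all IL-17A libraries, and control replicate 1 was the highest of the 6 libraries. The log2 fold change of Csf3 was 0.84 in limma, which counts it as higher. By edgeR's quasi-likelihood test it was -0.11 and by DESeq2 -0.20.

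Feedback and transcription genes of the response lay on the same side. Of 9 tested, 8 were higher and 1 was lower, 4 of the 8 at an unadjusted p under 0.05, with a median of 0.86, or 0.66 without the 2 libraries. Zc3h12a, whose product degrades the mRNAs of inflammatory genes, had 15.6, 12.1 and 8.37 in the controls and 67.6, 52.5 and 33.5 with IL-17A. Every IL-17A library was above every control, and the log2 fold change was 1.99 ± 0.40 (SE), with an adjusted p of 0.254, or 2.45 and 0.0447 without the 2 libraries.

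Nfkbiz, the co-activator that many IL-17 targets need, had 106, 52.0 and 41.1 in the controls and 148, 192 and 199 with IL-17A, a log2 fold change of 1.53. Nfkbia, encoding the NF-kB inhibitor IkBα, had 193, 494 and 433 against 899, 760 and 565, a log2 fold change of 1.07. Without the 2 libraries it was 0.84. Cebpd had 4.40, 2.31 and 2.24 against 37.7, 12.3 and 6.15, a log2 fold change of 2.0. None of the 3 overlapped between groups. Cebpb, encoding the related C/EBPβ, was the member on the lower side, with 42.5, 31.4 and 38.0 against 29.96, 25.6 and 40.8. For Tnfaip3, the NF-kB inhibitor A20, values of 22.3, 22.5 and 19.3 stood against 28.6, 39.0 and 9.84, so that IL-17A replicate 5 was below the controls.

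Of 16 acute phase, antimicrobial and enzyme genes tested, 12 were higher and 4 lower, 5 of the 12 at an unadjusted p under 0.05, with a median of 0.67, or 0.66 without the 2 libraries. Lcn2, an iron-sequestering antimicrobial protein, had 12.9, 7.98 and 7.54 in the controls and 84.7, 25.3 and 24.3 with IL-17A. The groups did not overlap, and the highest value was that of IL-17A replicate 2. Its log2 fold change was 1.92 ± 0.82 (SE), with an adjusted p of 0.959. Complement C3 had 135, 74.6 and 114 against 198, 156 and 267, a log2 fold change of 0.94. Cfb, the complement factor B gene, had 2.54, 1.04 and 0.707 against 9.69, 3.46 and 3.20, a log2 fold change of 1.34. Nos2, the inducible nitric oxide synthase, had 0, 1.95 and 0.707 against 20.1, 36.2 and 2.46, a log2 fold change of 3.02 in which IL-17A replicate 5 was close to the controls. Saa3, S100a8 and S100a9 overlapped between groups at values under 6, and Mmp3, Slpi, Ptgs2 and Ptges overlapped at values of 4.39 to 89.2.

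Taking the 3 response lists together, 33 of 39 tested members were higher and 5 lower, while 51.9% of all genes tested were higher. Ccl2 and Csf2, near the limit of detection, are among the 33. An unadjusted p under 0.05 was reached by 14 members, all higher, and 13 did not overlap between groups, all higher, beside 1.88% and 3.17% of all genes in that direction. The mean log2(value + 1) of the 39 genes was 3.11, 3.15 and 3.10 in control replicates 1, 3 and 5 and 4.43, 4.09 and 3.60 in IL-17A replicates 2, 3 and 5. Controls were alike in this measure, control replicate 1 included, and the IL-17A libraries spread over a wider range, with replicate 5 the closest to the controls. The median log2 fold change was 0.84 with all libraries and 0.82 without the 2, where 14 members (not compared one by one) were higher at an unadjusted p under 0.05, as were 3.06% of all genes tested in that fit.

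**Figure D3:**
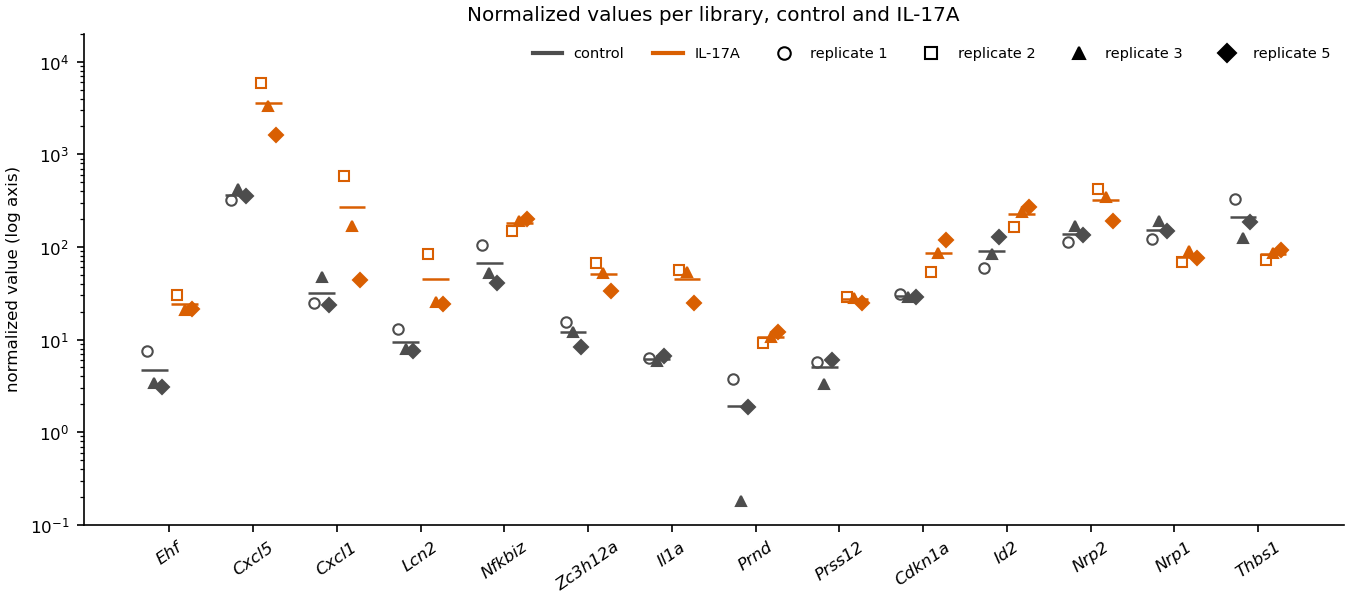
Normalized value in each control (grey) and IL-17A (orange) library on a log axis for 14 genes, with the marker shape giving the replicate number and the line the mean of 3 libraries. Ehf, Cxcl5, Lcn2, Nfkbiz, Zc3h12a, Il1a, Prnd, Prss12, Cdkn1a, Id2 and Nrp2 lie higher in every IL-17A library than in every control, Nrp1 and Thbs1 lower, and Cxcl1 overlaps. The separation is no result of its own. Apart from Ehf, Prnd and Prss12, the separated genes were ranked, which required it, and Prnd and Prss12 were picked after values were seen.

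The receptor and its adaptors stayed near 0 as a group. Of 23 tested members 11 were higher and 12 lower, with a median of -0.03. Il17ra had 63.8, 35.5 and 36.2 in the controls and 34.9, 22.5 and 42.4 with IL-17A, and Il17rc had 12.7, 9.68 and 10.02 against 5.41, 8.33 and 18.2. Both chains of the receptor were thus detected in every library and overlapped between groups. Il17re, a receptor chain used by IL-17C, was the 1 member at an unadjusted p under 0.05, with 3.21, 10.1 and 10.4 against 3.49, 2.36 and 2.95. Its groups overlapped through control replicate 1. Traf3ip2 had 15.4, 16.1 and 29.7 against 17.2, 25.2 and 30.4, Traf6 lay between 4.201 and 8.46, and Arid5a, an mRNA-stabilizing factor, had 21.3, 10.5 and 9.31 against 7.55, 5.97 and 8.29.

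Because IL-17A signals to NF-kB and C/EBP factors, the 250 bases before the RefSeq transcription start (GRCm38.p6) were searched on both strands. The motifs were the NF-kB consensus and the C/EBP motif TTGCNNAA. Over all 32851 promoters 3.90% held the first and 9.56% the second, and of the 9424 tested genes with an entry 5.53% and 8.92% did. Of the 24 genes that were called or ranked as higher, or belonged to the IL-17 lists and were higher at an unadjusted p under 0.05, 16 had an entry. The NF-kB consensus was found in 4 of them, Cxcl1, Cxcl2, Nfkbia and Neurl3, and the C/EBP motif in 2, C3 and Lcn2. These 6 upstream sequences are shown, with that of Zc3h12a, which held neither. They run 5′ to 3′ on the strand of the gene up to the base before the start, with motif matches in capitals. In Cxcl1 and Cxcl2 the capitals are 2 overlapping matches on opposite strands.
Cxcl1 (chr5:90890995-90891244, plus strand): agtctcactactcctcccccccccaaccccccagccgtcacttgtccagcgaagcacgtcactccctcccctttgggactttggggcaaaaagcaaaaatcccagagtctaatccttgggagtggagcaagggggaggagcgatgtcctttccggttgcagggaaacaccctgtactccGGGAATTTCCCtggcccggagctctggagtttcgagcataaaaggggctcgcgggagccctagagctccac
Cxcl2 (chr5:90903649-90903898, plus strand): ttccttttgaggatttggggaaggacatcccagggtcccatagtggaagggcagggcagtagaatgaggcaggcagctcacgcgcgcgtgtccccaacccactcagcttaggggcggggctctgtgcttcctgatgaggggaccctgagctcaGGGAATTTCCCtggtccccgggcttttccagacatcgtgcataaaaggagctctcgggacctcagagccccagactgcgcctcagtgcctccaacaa
Nfkbia (chr12:55492648-55492897, minus strand): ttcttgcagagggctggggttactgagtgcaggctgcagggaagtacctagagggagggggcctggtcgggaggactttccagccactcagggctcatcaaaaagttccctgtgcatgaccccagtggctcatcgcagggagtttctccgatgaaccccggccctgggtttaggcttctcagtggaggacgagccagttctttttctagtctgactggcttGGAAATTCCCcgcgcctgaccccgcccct
Neurl3 (chr1:36273426-36273675, minus strand): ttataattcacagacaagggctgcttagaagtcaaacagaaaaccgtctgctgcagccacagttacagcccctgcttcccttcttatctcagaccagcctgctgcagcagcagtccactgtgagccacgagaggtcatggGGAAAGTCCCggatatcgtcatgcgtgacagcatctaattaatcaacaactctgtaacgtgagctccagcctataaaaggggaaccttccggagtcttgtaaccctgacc
Lcn2 (chr2:32387740-32387989, minus strand): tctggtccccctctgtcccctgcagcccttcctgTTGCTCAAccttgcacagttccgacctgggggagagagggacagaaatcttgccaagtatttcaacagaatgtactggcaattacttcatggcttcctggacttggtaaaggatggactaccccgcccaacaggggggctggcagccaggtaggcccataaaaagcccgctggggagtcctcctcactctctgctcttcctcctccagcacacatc
C3 (chr17:57228137-57228386, minus strand): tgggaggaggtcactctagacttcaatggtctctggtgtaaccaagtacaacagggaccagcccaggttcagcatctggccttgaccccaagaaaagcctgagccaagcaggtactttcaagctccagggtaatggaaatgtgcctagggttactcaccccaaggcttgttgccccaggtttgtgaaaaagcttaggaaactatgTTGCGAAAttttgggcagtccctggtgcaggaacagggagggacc
Zc3h12a (chr4:125127882-125128131, minus strand): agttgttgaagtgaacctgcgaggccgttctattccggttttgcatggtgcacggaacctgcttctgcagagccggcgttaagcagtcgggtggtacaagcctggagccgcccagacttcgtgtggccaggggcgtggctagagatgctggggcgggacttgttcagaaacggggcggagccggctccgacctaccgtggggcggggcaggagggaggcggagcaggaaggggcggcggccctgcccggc
The match began 71 bases before the start in Cxcl1, 97 in Cxcl2, 29 in Nfkbia and 110 in Neurl3, and the same letters, GGGAATTTCC, stood in Cxcl1 and Cxcl2, whose values both overlapped between groups through IL-17A replicate 5. The C/EBP match began 45 bases before the start in C3 and 216 in Lcn2. A match of letters does not show binding.

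Outside the IL-17 lists, the genes ranked highest by p at or above the median level were of mixed function. Only genes whose groups did not overlap were ranked, in either direction, so the separation of ranked genes is no result of its own. Cdkn1a, encoding the cell cycle inhibitor p21, had 31.3, 29.0 and 28.8 in the controls and 54.1, 85.0 and 119 with IL-17A. The controls lay within a narrow range below all IL-17A libraries, and the log2 fold change was 1.43 ± 0.29 (SE), with an adjusted p of 0.254. Of 21 p53 targets tested, the list that holds Cdkn1a, 14 were higher and 7 lower, with a median of 0.16, or 0.01 without the 2 libraries. Fas, the death receptor, was the other member of that list higher at an unadjusted p under 0.05, with 5.58, 5.72 and 6.95 against 17.01, 13.5 and 8.61.

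Id2, an inhibitor of basic helix-loop-helix factors, had 58.7, 82.9 and 127 against 163, 240 and 269, a log2 fold change of 1.35. Pim1, a serine/threonine kinase, had 29.9, 72.9 and 51.0 against 128, 144 and 99.7, a log2 fold change of 1.33. Il24, an IL-10 family cytokine, had 20.8, 13.2 and 9.78 against 28.0, 41.3 and 32.7, a log2 fold change of 1.21. The adjusted p-values of these 3 genes were 0.254, 0.487 and 0.487. Slc39a4, a zinc importer, had a log2 fold change of 1.18, and Neurl3, an E3 ubiquitin ligase, of 1.12, both without overlap. Limma called neither and DESeq2 both, at adjusted p-values of 0.0117 and 0.0173. Without the 2 libraries the log2 fold change was 0.92 for Slc39a4 and 1.15 for Neurl3. Denr, a translation re-initiation factor, had a log2 fold change of 0.88, and Ddah1, which degrades asymmetric dimethylarginine, of 0.96.

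Prnd and Prss12 lay below the median level and are named after their values were seen. Prnd, encoding the prion-like protein doppel, had 3.72, 0.183 and 1.89 in the controls and 9.12, 10.7 and 12.1 with IL-17A, a log2 fold change of 2.19. Its adjusted p was 0.254, and 0.0447 without the 2 libraries. Prss12, encoding the serine protease neurotrypsin, had 5.75, 3.29 and 6.01 against 28.5, 28.1 and 24.9, a log2 fold change of 2.26, with an adjusted p of 0.22. The IL-17A libraries of both genes lay close together, IL-17A replicate 5 included.

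The neuropilins, co-receptors of VEGF and semaphorins, lay on opposite sides. Nrp2 had 114, 167 and 135 in the controls and 424, 348 and 190 with IL-17A, a log2 fold change of 1.14 ± 0.28 (SE), and it was called without the 2 libraries, at an adjusted p of 0.0447. Nrp1 had 121, 190 and 150 against 69.4, 90.5 and 75.8, a log2 fold change of -0.94 ± 0.22 (SE), with an adjusted p of 0.487, or 0.161 without the 2 libraries. Neither overlapped between the groups, which the ranking required.

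On the lower side limma called no gene, and 149 had an unadjusted p under 0.05. Thbs1, encoding the anti-angiogenic matrix protein thrombospondin 1, had 330, 124 and 184 against 72.7, 86.9 and 91.6, a log2 fold change of -1.23, or -0.92 without the 2 libraries, and DESeq2 called it, at an adjusted p of 0.0443. Ddx58, encoding the RNA sensor RIG-I, had 120, 72.0 and 94.1 against 46.5, 51.2 and 58.7, a log2 fold change of -0.84. Jag1, a Notch ligand, had 47.2, 50.8 and 48.4 against 24.2, 36.9 and 11.3, a log2 fold change of -1.13. None of the 3 overlapped between groups, which the ranking required. Without the 2 libraries the log2 fold changes of Ddx58 and Jag1 were -0.74 and -0.71. Jak2, a cytokine receptor kinase, had a log2 fold change of -0.68, and Cldn4, a tight junction claudin, of -0.86. The other ranked genes on this side, Fam13b, E2f5, Slc1a4, C9orf72, Clock, Tsc22d2 and Plcb4, had log2 fold changes of -0.61 to -0.91. Without the 2 libraries these ran from -0.37 (Clock) to -0.78 (Plcb4). In 9 of the 13 ranked genes on the lower side, Thbs1 and Ddx58 included, control replicate 1 was the highest of the 6 libraries.

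Of the other lists limma called no member but Ehf, DESeq2 called Cdkn1a as well, and the medians lay between -0.21 and 0.30. NF-kB subunits and inhibitors had a median of 0.14, with 8 of 11 higher, and the 2 at an unadjusted p under 0.05 were Nfkbia and Nfkbiz, which are also in the response lists. The NF-kB subunit genes Rela and Rel overlapped between groups. Immediate early genes had a median of 0.20, with 11 of 18 higher. Fosb had 0.508, 1.46 and 2.12 against 7.32, 3.77 and 3.20, and Egr1 went the other way, with 28.8, 7.98 and 11.4 against 4.39, 5.66 and 5.99. S phase genes had a median of 0.17, with 22 of 32 higher and 1 of these at an unadjusted p under 0.05. Without the 2 libraries it was 0.31, with 28 higher and 8 of these at an unadjusted p under 0.05. Of the 12308 genes tested in both fits, 6082 were higher without the 2 libraries, 387 of these at an unadjusted p under 0.05. Mitosis genes had a median of 0.14, with 19 of 25 higher, and of -0.11 without the 2 libraries, so that direction did not hold without them.

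Without the same 2 libraries some other lists changed direction. Hypoxia-induced genes had a median of 0.07, and -0.37 without them, and cholesterol genes -0.14, and 0.31 without them. With replicate number as a block and all libraries kept, the hypoxia median was -0.03 and the cholesterol median -0.14. Control replicate 1 had the highest mean log2(value + 1) of the cholesterol genes, 6.91 against 5.72 to 6.49 in the other 5 libraries, and the lowest of the hypoxia genes, 5.90 against 6.26 to 6.96. ATF4 targets went from -0.12 to 0.06. For glycolysis genes the median was -0.09, or -0.30 without the 2, for the unfolded protein response 0.16 or 0.17, and for NRF2 targets 0.18 or 0.10. Epithelial genes had a median of -0.21, with 16 of 21 lower and Ehf itself among the 5 higher, and mesenchymal genes -0.13, with 9 of 14 lower.

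**Figure D4:**
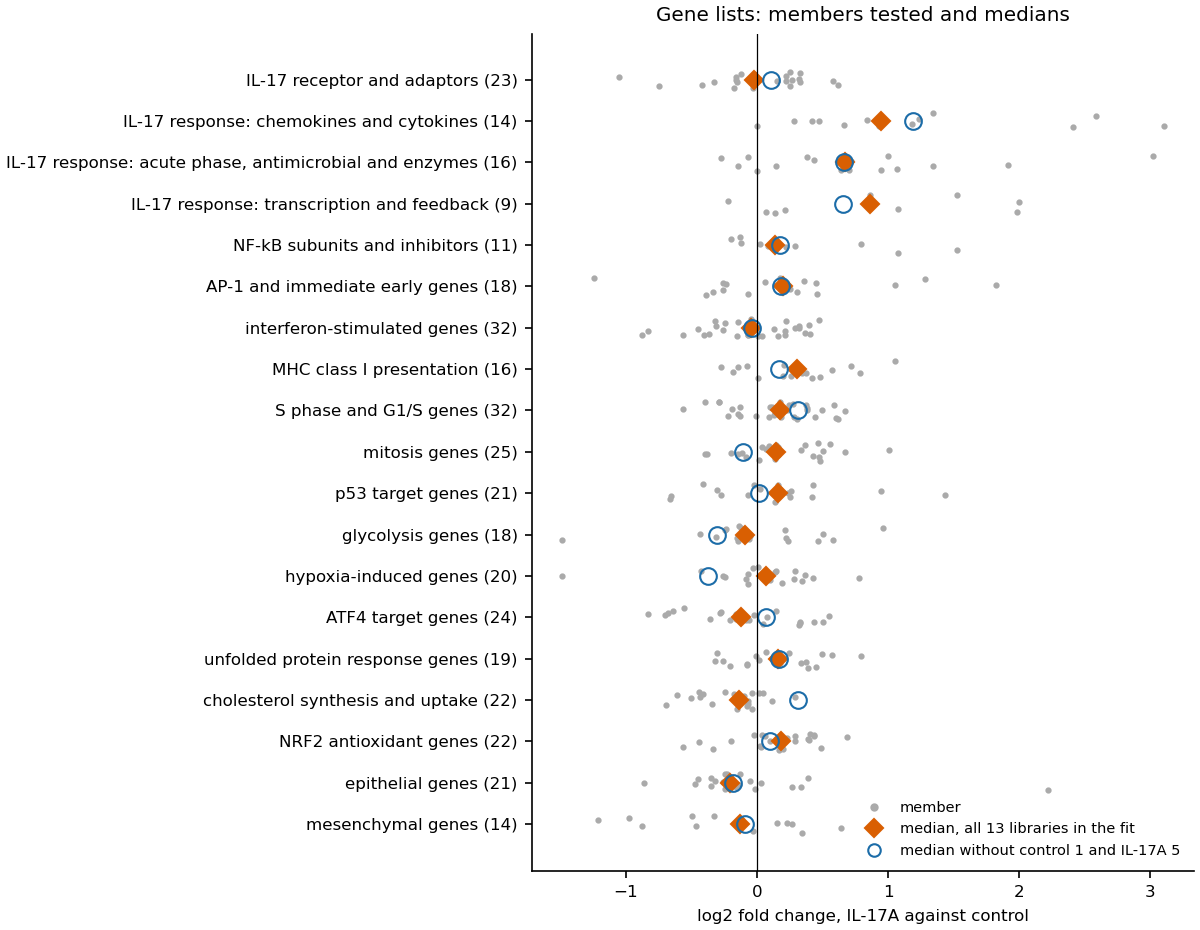
Log2 fold change of each tested member (grey points) of 19 gene lists, with the median in the fit of all libraries (orange diamond) and without control replicate 1 and IL-17A replicate 5 (blue circle), and the number tested in parentheses. The 3 response lists have medians of 0.95, 0.67 and 0.86, and the other 16 lie between -0.21 and 0.30.

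Interferon-stimulated genes had a median of -0.04 with and without the 2 libraries, 14 of 32 higher and 18 lower. Rsad2, an antiviral effector, had 15.9, 17.96 and 12.1 against 18.9, 23.3 and 17.6, and Isg15, a ubiquitin-like modifier, had 16.1, 24.1 and 13.6 against 39.7, 28.5 and 11.1, both with overlap. Isg15 is named after its values were seen. MHC class I presentation genes had a median of 0.30, with 12 of 16 higher and 0 at an unadjusted p under 0.05 in either direction. Cd274, encoding the checkpoint ligand PD-L1, had 1.52, 1.83 and 1.297 against 3.27, 2.04 and 2.79, low values without overlap. Its log2 fold change was 0.53 ± 0.32 (SE), with an adjusted p of 0.959. Thy1, the marker gene of the line, had 179, 78.8 and 79.9 against 99.7, 91.8 and 104.

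The effect of IL-17A alone was set beside its effect in cells that also received DOX. No gene had an adjusted p under 0.05 for the difference between the effects in limma (0% of those tested), and 556 (4.51%) had an unadjusted p under 0.05, or 1295 without control replicate 3, 1089 without IL-17A replicate 5 and 954 without the 2 libraries that were left out together. DESeq2 gave 18 such genes, edgeR's quasi-likelihood test 0 and voom 0, and leaving out the 2 libraries gave 3 (0.0236%) in limma, Isg15, Psmb8 and Rsad2. The median of the IL-17 response genes was 0.84 without DOX and 0.90 with it, and 5 of 39 had an unadjusted p under 0.05 for the difference. Ehf was 13.04, 12.4, 15.1 and 8.76 in DOX replicates 1 to 4 and 46.6, 51.8 and 45.8 in DOX+IL-17A replicates 2, 3 and 5, so that its change was 1.90 with DOX and 2.22 without, a difference of -0.32 ± 0.44 (SE).

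For the interferon-stimulated genes the effects lay apart. The median was -0.04 without DOX and -1.51 with it. All 32 were lower with IL-17A added to DOX, as were 6607 of the 12319 genes tested. An unadjusted p under 0.05 for the difference was reached by 24 of 32, beside 4.51% of all genes tested. Rsad2 was picked for this comparison after its values were seen. It had 181, 169, 261 and 294 in the DOX libraries and 71.2, 25.3 and 30.1 with IL-17A added, and its difference between the effects was -2.87 ± 0.46 (SE), with an adjusted p of 0.173, or 0.0465 without the 2 libraries. All values of Rsad2 in control and IL-17A libraries were below those of the DOX and DOX+IL-17A libraries, so the starting levels of the 2 comparisons differ. Id2, which was higher with IL-17A alone, had 116, 117, 111 and 103 with DOX and 111, 67.8 and 97.1 with DOX+IL-17A, which overlap.

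**Figure D5:**
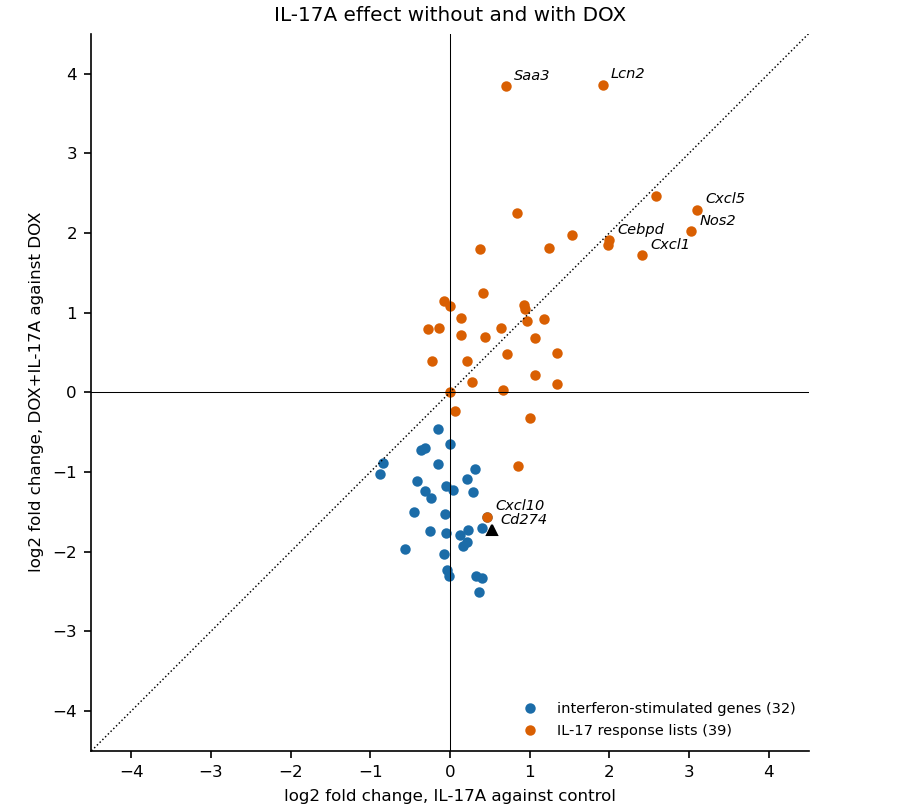
Log2 fold change of IL-17A against control (horizontal) and of DOX+IL-17A against DOX (vertical) for the 39 tested IL-17 response genes (orange), 32 interferon-stimulated genes (blue) and Cd274 (triangle), with a dotted line of equal change. Response genes such as Cxcl5, at 3.10 and 2.29, are high on both axes, while the interferon-stimulated genes have medians of -0.04 and -1.51.

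Markers of cell types that a culture of tumor cells should lack were also read. Of 16 immune cell markers 4 were tested, and Ptprc, the pan-leukocyte gene encoding CD45, had 9, 1 and 4 reads in the controls and 0, 2 and 3 with IL-17A. The summed value of the listed immune markers was 24.4 to 36.7 in the controls and 18.9 to 23.8 with IL-17A. Csf1r, the macrophage growth factor receptor gene, gave much of it in the controls and was lower in all 3 IL-17A libraries, with 16.7, 14.1 and 16.1 against 2.14, 7.07 and 5.58. Cd68, a further macrophage gene, was on the other side, with 0, 6.27 and 4.13 against 13.1, 5.82 and 4.68, which overlap. Red blood cell markers summed to 0.943 to 14.4 against 0 to 2.20, endothelial markers to 0.471 to 0.846 against 0.082 to 0.472, and liver markers to 0 against at most 1.58. Muscle markers summed to 80.7 to 158 against 125 to 149. Of 10 tested muscle genes 9 were lower and 1 higher, with a median of -0.54, or -0.35 without the 2 libraries. Their mean log2(value + 1) was 2.595, 2.22 and 1.42 in control replicates 1, 3 and 5. In IL-17A replicates 2, 3 and 5 that mean was 1.44, 1.40 and 1.88. The fibroblast list holds Thy1, which marks these tumor cells, so its sum of 127 to 322 against 133 to 161 says little of fibroblasts, and of its other genes Col1a1 had 44.7, 11.1 and 11.6 against 9.24, 8.65 and 15.1. All 6 tested genes of that list were lower, with a median of -0.32, and without the 2 libraries 3 were lower and 3 higher. The part of these transcripts in the values above was not tested.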

How the data were processed

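RNA of 4T1-Thy1.1 cells was made into 3′ mRNA libraries and read as single 75 base reads. Per the methods and processing notes of the study, reads were checked and trimmed (FastQC, Trimmomatic), aligned to mm10 with STAR, counted with featureCounts and normalized by TMM. The deposited table holds this normalized signal for each gene in each library, without counts. All values (100%) were whole multiples of 1 step per library, within 0.01 read, so reads were recovered by division. Of 13223 entries, 1 identical second entry was dropped, and 17 names stored as dates were kept. A 3′ count of reads depends little on transcript length, but comparisons here are within genes.

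Limma (3.58.1) with trend was fitted to log2(value + 1) of all 13 libraries, with group as the factor (9 residual degrees of freedom), on genes kept by edgeR (4.0.16) filterByExpr, with 2-sided tests and Benjamini-Hochberg adjustment. The pseudocount understates changes of low genes. Calls needed a fold change above 2 with an adjusted p under 0.05, and no fold change for the difference between effects. An exact permutation test of 3 against 3 cannot go below 0.1 and was not used. The procedure was tested on simulated data.

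Named were called genes, and among genes at or above the median level whose groups did not overlap, the 12 per direction with the lowest p and the 6 with the largest change in both the full fit and that without control replicate 1 and IL-17A replicate 5. IL-17 list members, Cd274, Thy1 and up to 2 members per direction of other lists could also be named. Comparison, lists and genes were chosen with earlier results of these data known, so a list's direction is not independent evidence.

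No source says that replicate numbers pair libraries, and they were not used as pairs: deviations from the group means correlated by over 0.1 in 8 of 13 same-numbered pairs, with 0.49 for replicate 3 and -0.18 for replicate 5 of control and IL-17A. No replicate pair agreed within sampling noise. Alternatives were voom, edgeR's quasi-likelihood test and DESeq2 (1.42.0) on recovered reads, library size scaling, other filters, a pseudocount of 0.1, only the 6 libraries, a replicate block, and libraries left out. Gene positions are from GENCODE vM21.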

Additional observations from a re-analysis of the deposited data

Results flagged for a closer look

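The change of Cd274 with IL-17A had opposite signs without and with DOX. Limma did not call the change without DOX, and the study reported no significant change of Cd274 with IL-17A alone. The study also reported that DOX raised Cd274 and that IL-17A given with DOX removed this rise. It found that difference from DOX alone significant. Cd274 was 1.52, 1.83 and 1.297 in control replicates 1, 3 and 5 and 3.27, 2.04 and 2.79 in IL-17A replicates 2, 3 and 5, and it was 17.9, 21.6, 28.1 and 32.4 in the DOX libraries and 7.98, 5.56 and 6.55 in the DOX+IL-17A libraries. Every IL-17A library was thus above every control, and every DOX+IL-17A library below every DOX library. The difference between the effects was -2.26 ± 0.44 (SE) on the log2 scale, with an adjusted p of 0.247 in limma, which misses the threshold, while DESeq2 had it among its 18 genes past the threshold. With 9 to 34 reads per library in the control and IL-17A groups, the increase without DOX rests on low counts.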

How the results depend on the processing

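With all libraries, 1 gene was called. The count was 0 with voom, edgeR's quasi-likelihood test, scaling by library size, all listed genes, a pseudocount of 0.1, only the 6 libraries, and the replicate block, 15 with DESeq2 and 5 without control replicate 1 and IL-17A replicate 5. It stayed at 1 with a mean of at least 10 reads, with the adjusted p alone, and with edgeR's quasi-likelihood test without the 2 libraries, an alternative added after the data were seen. Leaving out single libraries gave 0 to 2 calls (Ehf and Prnd without control replicate 1). The log2 fold change of Ehf stayed positive throughout and lost its call with voom (2.599), edgeR's quasi-likelihood test (2.41), library size scaling (2.17), all listed genes (2.22), a pseudocount of 0.1 (2.45), only the 6 libraries (2.22, adjusted p 0.996) and the replicate block (2.33), and ranged from 2.02 to 2.55 over the fits without single libraries. For the difference between the effects with and without DOX, the count of 0 became 18 with DESeq2 and 3 without the 2 libraries, and 0 to 1 over single libraries left out (Rsad2 without DOX+IL-17A replicate 2).

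The replicate block moved the count of genes at an unadjusted p under 0.05 from 380 to 211, and 7 of 12 libraries with a same-numbered partner correlated best with their own number. Of the 28 called or ranked genes, all but Ehf, which was called, were picked for groups that do not overlap. The kept direction of the 28 in 672 refits is therefore no sign of stability, and 13 of these refits made a call that the fit of all libraries did not. The medians of the 3 response lists stayed above 0 in all 25 fits, from 0.62 to 2.53 for the chemokines and cytokines. With the replicate block the medians were 0.69 for chemokines and cytokines, 0.81 for acute phase, antimicrobial and enzyme genes and 0.44 for transcription and feedback, another order than without it.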
